A study of Mus musculus with 16 samples.

Results

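Cell division ends in mitosis, in which the kinase Cdk1 and its cyclins condense the chromosomes, a spindle of microtubules attaches to them at their kinetochores, a checkpoint holds the cell until every chromosome is attached, and the anaphase-promoting complex then releases the sister chromatids before the cell is cut in cytokinesis. Most genes of this programme are switched on together late in the cell cycle and are nearly silent in resting cells. In adult liver the hepatocytes are mostly resting, and mitosis is known from regeneration after injury and from immune and stromal cells that multiply in a damaged liver.

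The 50 mitosis and spindle genes described here were picked by name out of the 25719 genes of the table, and all 50 were found. They were sorted by textbook role into 6 genes of Cdk1, its cyclins and their regulators, 5 mitotic kinases, 4 spindle checkpoint genes, 5 genes of anaphase and mitotic exit, 7 genes of chromosome structure and the passenger complex, 8 centromere and kinetochore genes, 7 mitotic kinesins, 5 spindle microtubule proteins and 3 cytokinesis genes. RNA of whole liver was sequenced from male wild type mice (WT, C57BL6J) and from mice that lack Klrk1 (Klrk1-/-), the gene of NKG2D, an activating receptor of NK and T cells. Mice were 8 to 12 weeks old and were given normal chow diet (NCD) or, for 3 weeks, a diet that brings on steatosis and steatohepatitis (SSD), rich in fat, fructose and cholesterol. There were 4 WT mice on NCD, 5 WT mice on SSD, 4 Klrk1-/- mice on NCD and 3 Klrk1-/- mice on SSD, each a separate mouse and library.

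The libraries held 19892025 to 28936707 reads counted on genes. Klrk1 itself stood at 20.1 to 28.7 normalized counts in WT mice on NCD and at 32.9 to 71.1 in WT mice on SSD, against 1.23 to 8.71 and 0.966 to 4.29 in Klrk1-/- mice on the same diets, so the labelled genotypes could be told from it. The 8 hepatocyte markers summed to between 1511000 and 3062000 normalized counts in every mouse. WT mouse 1 on SSD stood apart over all genes: a chi-square of reads per gene was 73.4 to 101 between it and the other SSD-fed WT mice and 18.9 to 36.2 among those 4. Klrk1-/- mouse 3 on NCD also stood apart, at 36.6 to 43.2 from the other 3 mice of its group and 14.3 to 17.5 among those, and without it limma called no member between the genotypes on NCD (0 at an unadjusted p under 0.05) and 2 for SSD in Klrk1-/- mice.

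Promoters of mitotic genes are known to share a cell cycle genes homology region (CHR), bound by the DREAM complex in resting cells and by MuvB with B-Myb and Foxm1 in dividing ones, and CCAAT boxes bound by NF-Y. RefSeq promoter windows (build GRCm38.p6, 250 bases before to 50 bases after a start site) matched 41 of the 50 genes by symbol, with 43 windows. No window was found for Incenp, Pbk, Foxm1, Kif20a, Aurkb, Ccna2, Cdc25c, Tpx2 and Spc24. The letters searched were TTTGAA or TTCGAA for the CHR, CCAAT, and GCGGGAA for an E2F site, on both strands and with overlaps counted. The 100 bases just before the start site are printed for 5 genes that show both motifs there, for Ccnb1, which holds CCAAT without CHR letters, and for Pttg1, whose whole window holds neither. Melk, Mad2l1, Birc5, Nuf2 and Nusap1 also held none of the letters searched, and 4 of these 5, all but Nuf2, rose with SSD in WT mice. Capitals mark CHR letters (TTTGAA, or TTCAAA on the opposite strand) and CCAAT (or ATTGG on the opposite strand), 5′ to 3′ on the strand of the gene.
Cdk1 (chr10:69352913-69353012, minus strand): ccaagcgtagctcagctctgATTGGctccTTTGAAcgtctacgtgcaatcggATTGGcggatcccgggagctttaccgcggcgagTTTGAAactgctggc
Cdc20 (chr4:118437344-118437443, minus strand): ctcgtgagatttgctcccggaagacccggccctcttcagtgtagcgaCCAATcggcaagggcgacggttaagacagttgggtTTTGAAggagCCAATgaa
Top2a (chr11:99024190-99024289, minus strand): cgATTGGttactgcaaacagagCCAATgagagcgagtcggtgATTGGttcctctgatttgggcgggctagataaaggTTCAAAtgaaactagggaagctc
Kif11 (chr19:37376282-37376381, plus strand): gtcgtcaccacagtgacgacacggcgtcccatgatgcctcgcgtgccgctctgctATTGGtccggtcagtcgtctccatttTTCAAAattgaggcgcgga
Ube2c (chr2:164769829-164769928, plus strand): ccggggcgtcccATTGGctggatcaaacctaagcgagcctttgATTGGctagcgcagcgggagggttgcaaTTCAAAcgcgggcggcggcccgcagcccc
Ccnb1 (chr13:100786487-100786586, minus strand): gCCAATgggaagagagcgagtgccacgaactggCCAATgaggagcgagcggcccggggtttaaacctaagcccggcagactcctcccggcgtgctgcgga
Pttg1 (chr11:43425982-43426081, minus strand): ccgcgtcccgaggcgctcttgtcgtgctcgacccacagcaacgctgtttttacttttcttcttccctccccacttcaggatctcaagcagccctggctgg

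CHR letters were in 35 of the 43 windows (81.4%), against 19.2% of all 32851 RefSeq windows and 14.1% of the windows of genes tested for the diet in WT mice. Counted only from 100 bases before the start site onwards, they were in 76.7% of the members' windows and in 8.59% of all windows. CCAAT was in 76.7% of the members' windows against 37.4% of all, and at least 2 copies of it were in 48.8% against 11.7%. The E2F letters were in 1 window (2.33%), that of the condensin subunit Ncapg, against 4.6% of all. S phase genes, set beside them, had E2F letters in 52.6% and CHR letters in 15.8% of their 19 windows, but CCAAT in 73.7% and at least 2 copies of it in 42.1%, close to the members' shares. Such matches are a description of these windows, and the data do not show whether a factor was bound.

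**Figure D1:**
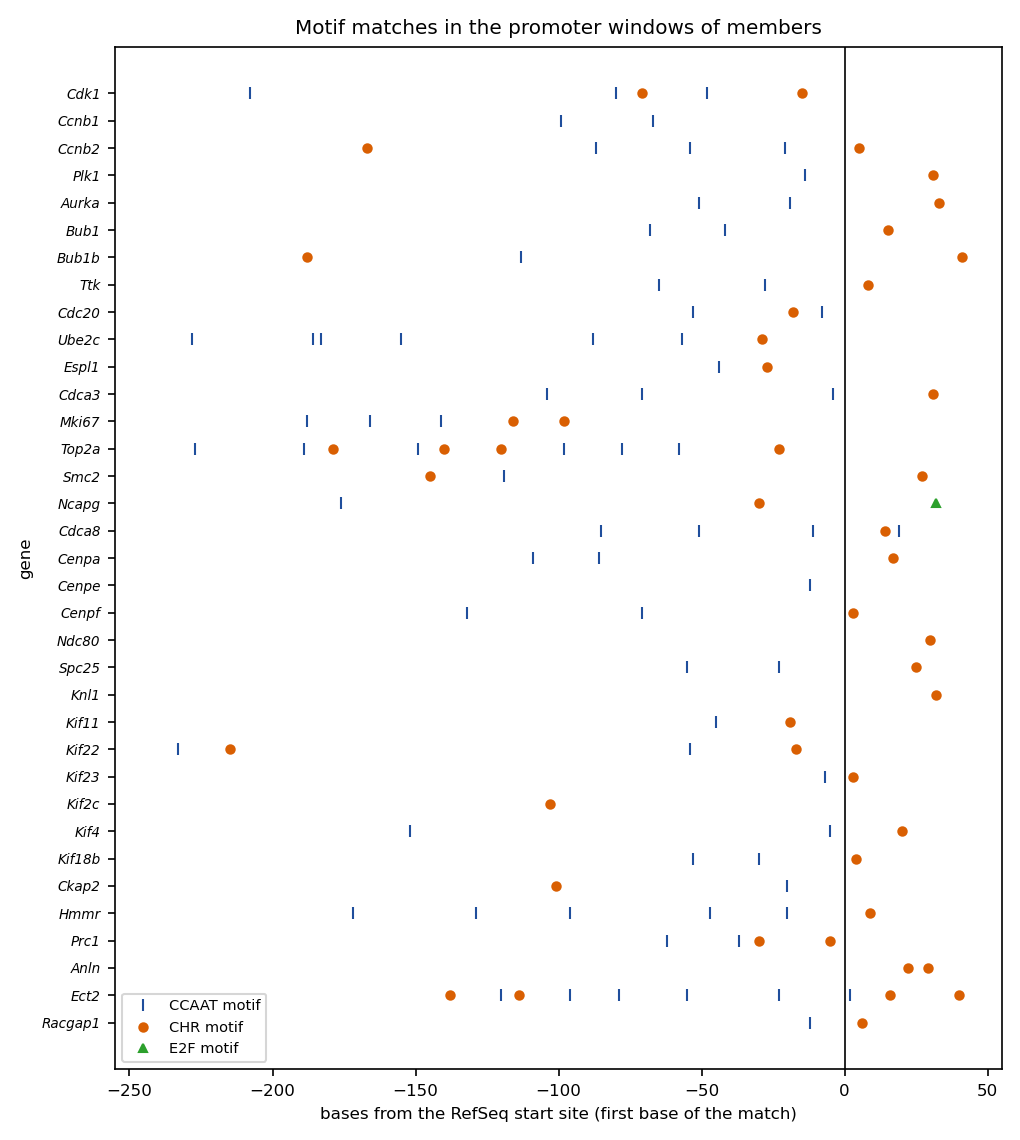
Position of each match to the CHR, CCAAT and E2F letters (horizontal axis: bases from the RefSeq start site to the first base of the match) in the promoter windows of the 35 genes with any match, 1 row per gene. CHR matches lie mostly near the start site and CCAAT matches mostly before it, and 1 gene, Ncapg, has the E2F letters.

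In WT liver, 44 of the 50 genes rose with 3 weeks of SSD and none fell, which is 44 of 50 tested against 6.11% of all 13091 genes tested that rose, 2.9% that fell and 9.01% called in either direction. A gene was called at a Benjamini-Hochberg adjusted p under 0.05 by limma on log2(normalized count + 1) together with a change of over 2-fold. All 50 reached an unadjusted p under 0.05 (45.4% of all genes), among them 2 that were lower (22.7% of all genes were lower at that p), and edgeR and DESeq2 on the reads each called 48 higher and none lower. The median log2 fold change of the 50 genes was 2.14, against -0.002 for all genes tested, and the values ran from -0.73 to 4.12. In 27 genes every SSD-fed WT mouse was above every NCD-fed WT mouse, which held for 13.5% of all genes tested. In RNA of whole liver, more dividing cells and more of these RNAs per cell cannot be told apart. The mean normalized count on NCD was under 10 for 19 of the 50 genes, which entered the test through their level on SSD.

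**Figure D2:**
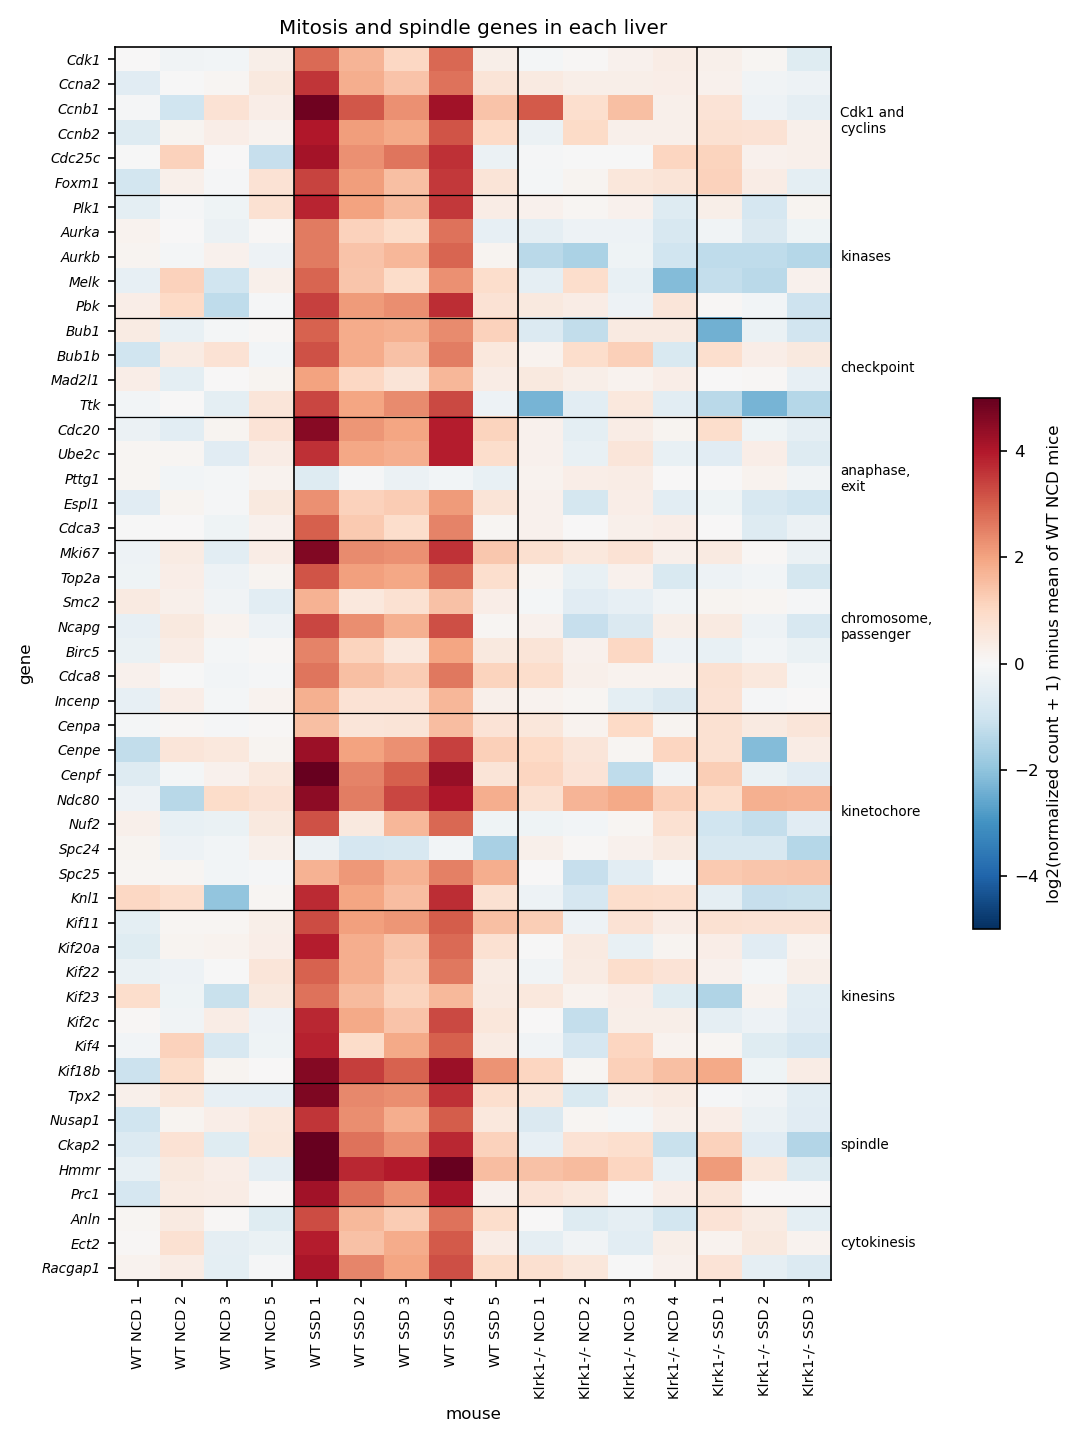
Each of the 50 genes (rows, grouped by role) in each of the 16 mice (columns), as log2(normalized count + 1) minus the mean of the 4 WT mice on NCD; the colour scale ends at 5 in both directions. The SSD-fed WT mice are high in nearly every row, mouse 1 and mouse 4 most and mouse 5 least, and the Klrk1-/- mice on either diet stay near the NCD-fed WT mice outside a few rows such as Spc24, Spc25 and Aurkb.

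Mki67, whose protein coats mitotic chromosomes and serves as the common stain for dividing cells, lies on chr7:135291513-135318090 (GRCm39, minus strand). It stood at 25.3, 41.3, 20.9 and 39.7 normalized counts in WT mice on NCD and at 788, 162, 154, 387 and 79.2 in WT mice 1 to 5 on SSD. Every SSD-fed mouse was above every NCD-fed mouse, while the SSD-fed mice ran from 79.2 to 788 among themselves. The log2 fold change was 2.86 ± 0.53 (SE, limma adjusted p = 0.00181; exact two-sided permutation p = 0.0159, the smallest that 4 against 5 mice allow). Top2a (chr11:98883769-98915015, minus strand), the topoisomerase that untangles sister chromatids, stood at 27.7, 41.3, 27.4 and 35.3 on NCD and at 296, 138, 127, 243 and 59.6 on SSD. It rose by 2.17 ± 0.38 on the log2 scale (limma adjusted p = 0.00121), again with the highest values in mouse 1 and mouse 4 and the lowest in mouse 5. Birc5, which codes for survivin of the passenger complex, stood at 27.7, 45.3, 32.6 and 36.4 on NCD and at 197, 76.0, 51.4, 141 and 49.0 on SSD, without overlap (log2 fold change 1.31 ± 0.38, limma adjusted p = 0.019). The passenger partners Cdca8 (borealin, 1.84) and Incenp (1.04) and the condensin subunit Ncapg (2.15) rose too. Smc2, the core ATPase of condensin, passed the adjusted p (0.0285 by limma) at a log2 fold change of 0.96, short of 2-fold. EdgeR and DESeq2 called Smc2 higher.

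All 6 genes of Cdk1, its cyclins and their regulators rose. Cdk1 (chr10:69170976-69188768, minus strand), the kinase that drives entry into mitosis, stood at 43.4, 38.3, 39.1 and 53 normalized counts on NCD and at 314, 143, 89.5, 321 and 52.3 on SSD. Mouse 5 on SSD lay inside the NCD range and the other 4 above it, and the log2 fold change was 1.74 ± 0.46 (limma adjusted p = 0.012). Its partner Ccna2 (cyclin A) stood at 15.7, 23.2, 24.8 and 33.1 on NCD and at 288, 84.5, 64.7, 161 and 37.6 on SSD. Ccnb1 (cyclin B, chr13:100915158-100923078, minus strand) stood at 4.82, 2.01, 9.12 and 6.62 on NCD and at 175, 51.5, 28.6, 110 and 15.5 on SSD. Neither cyclin overlapped between the diets, and the log2 fold changes were 2.04 ± 0.48 for Ccna2 (limma adjusted p = 0.00702) and 3.18 ± 0.63 for Ccnb1 (0.0026). Foxm1, the transcription factor that switches on late cell cycle genes, stood at 6.03, 15.1, 11.7 and 21.0 on NCD and at 138, 55.8, 37.1, 154 and 19.6 on SSD, with mouse 5 inside the NCD range (log2 fold change 2.23 ± 0.56, limma adjusted p = 0.00969). Ccnb2 (2.43) and Cdc25c, the phosphatase that activates Cdk1 (2.50), rose as well, although Cdc25c rested on 0 to 4 reads per mouse on NCD.

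Of the 5 mitotic kinases 4 rose by limma. Plk1, which acts at centrosomes and kinetochores, stood at 9.65, 13.1, 11.7 and 24.3 on NCD and at 205, 59.1, 42.8, 171 and 18.0 on SSD. Aurkb, the kinase of the passenger complex, stood at 14.5, 12.1, 15.6 and 11.0 on NCD and at 84.4, 37.2, 43.8, 107 and 14.7 on SSD. In both, mouse 5 lay among the NCD values, and the log2 fold changes were 2.26 ± 0.60 (limma adjusted p = 0.0133) and 1.75 ± 0.47 (0.0131). Pbk (2.45) and Melk (1.68) rose. Aurka, the centrosome kinase, was not called by limma (1.39 ± 0.54, limma adjusted p = 0.0617) but was called higher by edgeR and DESeq2.

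All 4 spindle checkpoint genes rose, Bub1 by 2.02 ± 0.40 (limma adjusted p = 0.00285), Ttk by 2.14, Bub1b by 1.92 and Mad2l1 by 1.15 on the log2 scale. Bub1 stood at 6.03, 3.02, 3.91 and 4.41 on NCD and at 39.2, 17.7, 17.1, 25.8 and 10.6 on SSD, without overlap. Of the 5 genes of anaphase and mitotic exit 4 rose. Cdc20, the activator of the anaphase-promoting complex, stood at 14.5, 12.1, 19.6 and 29.8 on NCD and at 442, 87.0, 73.3, 290 and 40 on SSD, all 5 above the NCD range (log2 fold change 2.76 ± 0.60, limma adjusted p = 0.00444). Ube2c, the ubiquitin-conjugating enzyme of that complex, rose by 2.43, Cdca3 by 1.55 and Espl1 (separase) by 1.49.

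The 7 kinesins, the 5 spindle microtubule proteins and the 3 cytokinesis genes all rose. Kif11, the motor that pushes the spindle poles apart, stood at 8.44, 13.1, 13.0 and 15.4 on NCD and at 126, 53.2, 60.0, 107 and 36.7 on SSD, and the diets did not overlap (log2 fold change 2.41 ± 0.35, limma adjusted p = 0.000334). The other kinesins rose by between 1.49 (Kif23) and 3.5 (Kif18b). Among the spindle microtubule proteins Nusap1 rose least, by 2.26, and Tpx2, which activates Aurora A on the spindle, rose by 2.78. Anln (anillin of the contractile ring) stood at 13.3, 17.1, 13.0 and 7.72 on NCD and at 126, 39.7, 31.4, 86.2 and 23.7 on SSD, without overlap (1.95 ± 0.45, limma adjusted p = 0.00647). Racgap1 and Ect2, which position that ring, rose by 2.54 and 2.14.

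The largest fitted changes were those of Hmmr, a spindle pole protein (4.12 ± 0.72, limma adjusted p = 0.00127), of Kif18b (3.5 ± 0.57, 0.00081) and of the kinetochore protein Ndc80 (3.25 ± 0.64, 0.00246). All 3 had at most 3 reads in each of the 4 WT mice on NCD, so these values depend on the pseudocount. Set against 3 reads per mouse, Hmmr was at least 11.2-fold higher, Ndc80 at least 5.6-fold and Kif18b at least 5.35-fold on SSD. These 3 bounds, 2.42 to 3.49 on the log2 scale, lie above the median of 2.14 over the 50 genes. Setting them in could not move it.

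Limma called 5 of the 8 kinetochore genes, the smallest share of any role group. EdgeR and DESeq2 called all of them but Spc24. Cenpe, a motor that carries chromosomes to the spindle equator, stood at 2.41, 11.1, 10.4 and 7.72 on NCD and at 153, 31.3, 38.1, 83.5 and 17.1 on SSD, without overlap (2.63 ± 0.58, limma adjusted p = 0.00514). Cenpf (3.10) and Knl1, the scaffold of the checkpoint (2.33), rose with Ndc80. Nuf2, the partner of Ndc80, was not called by limma (1.60 ± 0.64, limma adjusted p = 0.0709) but was called higher by edgeR and DESeq2. Cenpa, the histone variant that marks centromeres, passed the limma adjusted p (0.00402) at a log2 fold change of 0.99, just under 2-fold. Cenpa was past 2-fold under edgeR (1.06) and DESeq2 (1.07).

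The 2 members with a value below 0 were Spc24 and Pttg1. Spc24 (chr9:21666738-21671599, minus strand), a subunit at the inner end of the Ndc80 complex, stood at 380, 289, 314 and 407 on NCD and at 281, 194, 197, 317 and 112 on SSD. Its log2 fold change was -0.73 ± 0.25 (limma adjusted p = 0.0406), short of 2-fold and with overlapping groups, and it was -0.39 (adjusted p = 0.223) when every sample was scaled to the same total. Pttg1 (chr11:43311077-43317078, minus strand), which codes for securin, the inhibitor of separase, stood at 909, 763, 791 and 946 on NCD and at 541, 818, 688, 774 and 656 on SSD. It was not called (-0.30 ± 0.12, limma adjusted p = 0.0751), and its value was 0.04 under the same scaling, which moved the median of all genes to 0.344. Both were also the members with the most RNA per length in resting liver. On the scale of normalized counts per kilobase of the deposited gene length, Pttg1 had a mean level of 1101 ± 115 (SD, n = 4) and Spc24 of 358.7 ± 57 in WT mice on NCD, followed by Cenpa at 88.22 and Cdca3 at 50.24. In SSD-fed WT mice Pttg1 (898.2) and Spc24 (227.3) had the highest means, and those of Spc24 (SD 83.26), Cdca3 (192.6), Cenpa (184.2) and Cdc20 (181.1) did not differ beyond their spread, while Knl1 was last at 6.061. In exons of the annotation in hand Pttg1 shares 220 of 2473 bases with Slu7 on the opposite strand, and Spc24 shares none with another gene.

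Spc25, the partner of Spc24, differed from it. It stood at 45.8, 46.3, 39.1 and 41.9 on NCD and at 147, 195, 147, 251 and 155 in WT mice on SSD, and it rose by 1.99 ± 0.17 on the log2 scale (limma adjusted p = 8.13e-06). Mouse 5, the lowest of the SSD-fed WT mice for most members, was the third of the 5 for Spc25. Of the 7031 exon bases of Spc25, 3693 overlap the exons of Nostrin on the opposite strand, and whether the counting used strand is not given in the sources used here, so reads of the pair may not be told apart. Nostrin went the other way with the diet, at a log2 fold change of -0.83 ± 0.19 in WT mice (limma adjusted p = 0.00565). Over all 50 genes, 27 share exon bases with some other annotated gene.

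**Figure D3:**
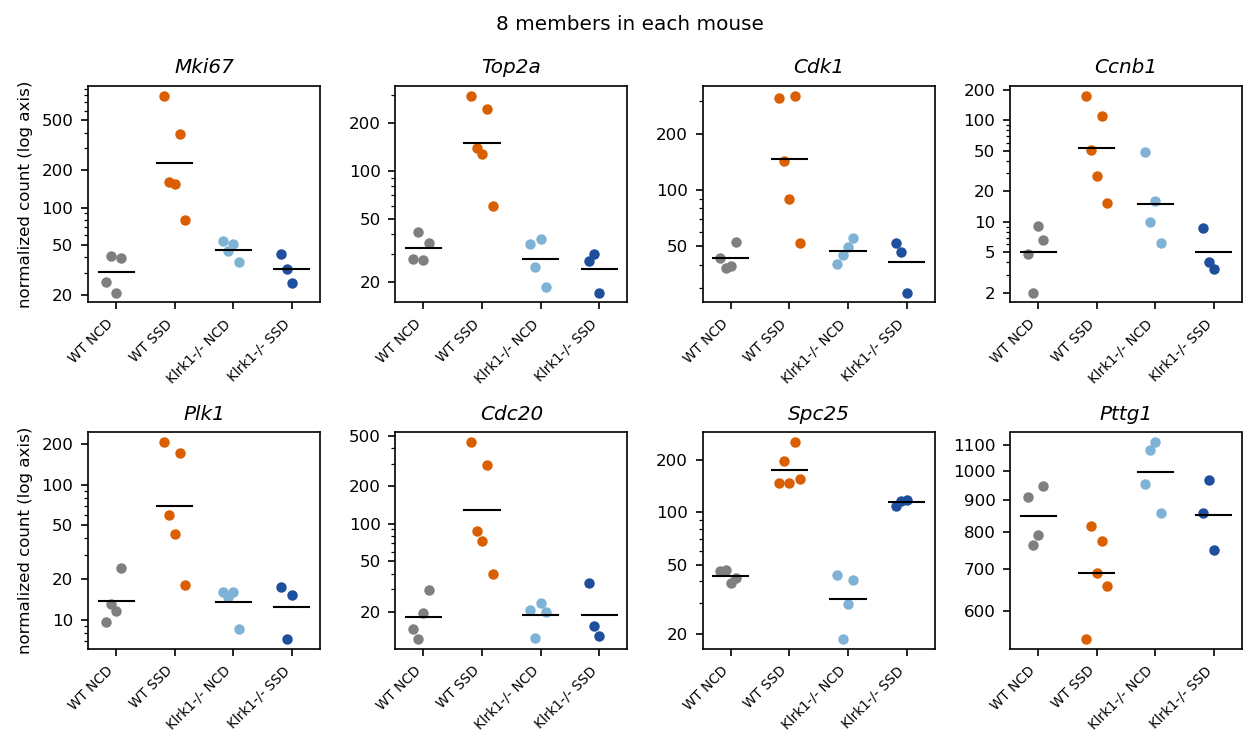
Normalized counts (vertical log axis) of 8 members in each mouse by group, where each point is a mouse and each bar is the mean on the log2(normalized count + 1) scale. For Mki67, Top2a, Cdk1, Ccnb1, Plk1 and Cdc20 the highest points are SSD-fed WT mice, while WT mouse 5 on SSD lies among the NCD values for Cdk1 and Plk1 and 1 Klrk1-/- mouse on NCD reaches 49.4 for Ccnb1, Spc25 is high on SSD in both genotypes, and Pttg1 is not higher on SSD.

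Mouse 5 had the lowest value of the SSD-fed WT mice in 47 of the 50 genes. The mean of log2(normalized count + 1) over the 50 genes was 3.92 ± 0.18 (SD, n = 4) in WT mice on NCD and 5.98 ± 1.07 (n = 5) on SSD, at 7.23, 5.71, 5.57, 6.85 and 4.55 in mice 1 to 5. Mouse 1 and mouse 4 were far above the rest, and mouse 5 was closest to the NCD-fed mice, which lay between 3.73 and 4.09. The number of members above all 4 NCD-fed mice was 48, 47, 47 and 48 in mice 1 to 4 and 27 in mouse 5, against 34.4%, 29.4%, 30.2%, 32.6% and 28.9% of all genes tested in mice 1 to 5. Without mouse 1 on SSD, which stood apart over all genes, 38 members were called, and leaving out each mouse in turn gave between 36 and 48, all of them higher.

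Markers of other cells moved with these values. The 14 monocyte and macrophage markers summed to 5209 to 5531 normalized counts in WT mice on NCD and to 18100, 8368, 8245, 13420 and 8001 in WT mice 1 to 5 on SSD, the same order of mice as for the members. The 8 leukocyte markers summed to 6796, 4309, 4538, 4640 and 3717 in those 5 mice, against 3181 to 3346 on NCD. Stellate cell markers, 8 in number, summed to 18030, 6298, 6084, 5547 and 2427, against 2478 to 3151 on NCD, so mouse 5 was as low as the NCD-fed mice and mouse 1 stood far above the others. Hepatocyte markers summed to 1511000 to 1975000 on SSD against 2398000 to 2713000 on NCD. The normalized counts of all genes also summed to less on SSD, 19222033 to 21373610 against 25001171 to 27985228, and the part of that in the hepatocyte sums was not tested. The 11 T and NK cell markers, the 5 B cell markers and the 7 neutrophil markers overlapped between the diets in WT mice. Ly6g, a defining neutrophil marker, had at most 3 reads in every WT mouse. The 6 endothelial markers lay at 2160 to 3623 and 3463 to 4359, and the 5 bile duct markers overlapped. In Klrk1-/- mice the macrophage marker sums were also higher on SSD without overlap, at 4562 to 5396 on NCD and 6217 to 7674 on SSD. So were those of leukocyte markers (2909 to 3030 and 3736 to 3920) and stellate cell markers (2368 to 3057 and 3157 to 4269). T and NK cell markers (192.9 to 258.3 on NCD, 153.4 to 184.3 on SSD) and hepatocyte markers (2323000 to 3062000 and 2106000 to 2264000) were lower there without overlap. B cell, neutrophil, endothelial and bile duct markers overlapped. The part of these cells in the members' values was not tested.

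**Figure D4:**
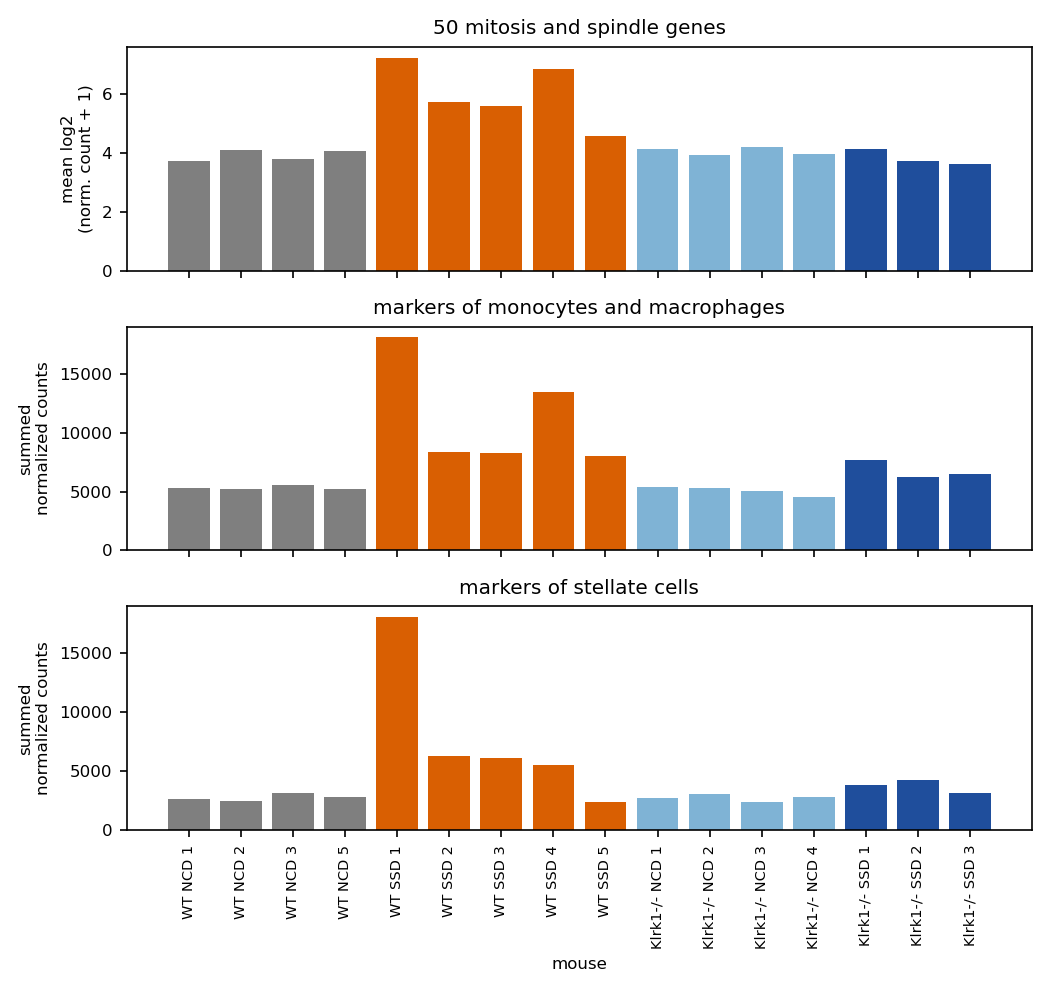
Mean log2(normalized count + 1) of the 50 members (top) and summed normalized counts of the monocyte and macrophage markers (middle) and stellate cell markers (bottom), 1 bar per mouse, all axes from 0. Among the SSD-fed WT mice, mouse 1 is highest in all 3 panels and mouse 5 lowest, and the Klrk1-/- mice on SSD have members at the NCD level with macrophage marker sums of 6217 to 7674.

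On SSD, limma called 14 of the 50 genes lower in Klrk1-/- than in WT liver, 36 were not called and none was called higher, against 0.968% of the 13116 genes tested that were called lower and 0.183% called higher. The median log2 difference was -2.26 (-1.5 with a pseudocount of 10), against -0.001 over all genes, and in 37 members every Klrk1-/- mouse was below every WT mouse, against 8.74% of all genes, while no member had the groups apart the other way (9.19% of all genes). An unadjusted p under 0.05 was reached by 48 members (22.9% of all genes), 1 of them, Pttg1, higher. The Klrk1-/- mean was under 10 for 21 of the 50, which were tested through their level in WT mice. Of the 14 genes called, Ccnb1, Aurkb, Pbk, Bub1, Ttk, Espl1, Knl1, Kif18b and Tpx2 were among these 21. With a minimum mean of 50, 2 members were called.

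The called genes came from every role group. They were Ccnb1 of the cyclins, Aurkb and Pbk of the kinases, Bub1 and Ttk of the checkpoint, Ube2c and Espl1 of anaphase, Mki67 and Top2a of chromosome structure, Knl1 of the kinetochore, Kif11 and Kif18b of the kinesins, Tpx2 of the spindle and Racgap1 of cytokinesis. Mki67 stood at 42.5, 32.1 and 24.9 normalized counts in the 3 Klrk1-/- mice on SSD, so that the lowest WT mouse on SSD, at 79.2, was above all of them. The log2 difference was -2.77 ± 0.61 (limma adjusted p = 0.041; exact two-sided permutation p = 0.0357, the smallest that 3 against 5 mice allow). Top2a stood at 27.0, 29.7 and 17.1 and fell by 2.59 ± 0.45 (limma adjusted p = 0.0188). Bub1 stood at 0, 3.21 and 1.71 and had a log2 difference of -3.23 ± 0.56 (limma adjusted p = 0.0192). It rested on 0, 4 and 2 reads, and its log2 difference ran from -3.69 to -1.41 over the other settings. Aurkb stood at 4.83, 4.82 and 4.29, below the WT mice on NCD, and its log2 difference was -3.08 ± 0.54 (limma adjusted p = 0.0202). On NCD Aurkb stood at 4.60, 3.73, 11.2 and 6.15 in Klrk1-/- mice, where it was too low to be tested and all but 1 mouse lay below the WT mice. Ccnb1 stood at 8.69, 4.02 and 3.43 (-3.20 ± 0.69, 0.0398) and Kif11 at 21.2, 20.9 and 20.6 (-1.68 ± 0.36, 0.0398). In all of these genes the genotypes did not overlap.

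The largest fitted difference was that of Ttk, the kinase that starts the checkpoint signal, at -3.85 ± 0.77 (limma adjusted p = 0.031). It stood at 0.966, 0 and 0.857 in Klrk1-/- mice, which is 2 reads over the 3 mice, and at 50.5, 18.6, 24.7, 48.0 and 3.27 in WT mice. Against 3 reads per mouse it was at least 6.14-fold lower, and Knl1, with 4 reads over the 3 mice, at least 5.52-fold lower. Both bounds (-2.62 and -2.46 on the log2 scale) lie below the median of -2.26 over the members. Setting them in could not move it.

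Hmmr (-3.43 ± 0.92, limma adjusted p = 0.0738) and Ckap2 (-3.28 ± 0.82, 0.0623) had the next largest differences and were not called. The same held for Cdk1, at 52.2, 46.6 and 28.3 in Klrk1-/- mice (-1.81 ± 0.55, limma adjusted p = 0.0966), and for Plk1, at 17.4, 7.23 and 15.4 (-2.39 ± 0.70, 0.0911), although every Klrk1-/- mouse was below every WT mouse in both. Cdc20 stood at 33.8, 15.3 and 12.9 (-2.69 ± 0.70, limma adjusted p = 0.0688), Ccna2 at 27.0, 20.9 and 19.7 (-2.10 ± 0.54, 0.0664) and Birc5 at 27.0, 31.3 and 27.4 (-1.60 ± 0.42, 0.0724), also without overlap. Foxm1 at 29.0, 16.1 and 8.57 overlapped with WT (-1.88 ± 0.64, 0.128 by limma). Cenpe at 12.6, 0.803 and 9.43 (-2.97 ± 0.78, limma adjusted p = 0.0698) and Anln at 20.3, 16.9 and 8.57 (-1.74 ± 0.52, 0.0957) did not overlap. The smallest differences were those of Spc24 (-0.28 ± 0.30, limma adjusted p = 0.615), Pttg1 (0.31 ± 0.14, 0.215) and Cenpa (-0.40 ± 0.24, 0.361).

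How many members were called depended on each of the 8 mice. The count was 0 without Klrk1-/- mouse 1 or mouse 3, 1 without Klrk1-/- mouse 2, 23 without WT mouse 1, 4, 3 and 4 without WT mice 2, 3 and 4, and 43 without WT mouse 5, the mouse with the lowest members, while between 43 and 48 members had an unadjusted p under 0.05 in each of these fits. It was 7 with edgeR, 45 with DESeq2 and 41 with all 4 groups in 1 model, and all calls were lower in Klrk1-/- mice. Monocyte and macrophage markers summed to 6217 to 7674 in Klrk1-/- and 8001 to 18100 in WT mice on SSD, and hepatocyte markers to 2106000 to 2264000 and 1511000 to 1975000, neither with overlap. The normalized counts of all genes summed to 21861121 to 22666465 and 19222033 to 21373610 in these mice. The stellate marker sums, 3157 to 4269 in Klrk1-/- mice, overlapped with WT through mouse 5, and the leukocyte sums, 3736 to 3920, did so too. Their part was not tested.

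On NCD, limma called 0 of the 33 members tested between the genotypes, against 0.849% of all 12845 genes called higher, 0.856% called lower and 1.7% in either direction, and 3 had an unadjusted p under 0.05 (31% of all genes). Those 3 were Ccnb1, Mki67 and Cenpa, all higher in Klrk1-/- mice, edgeR called none, and DESeq2 called Ccnb1 higher. Of the 50 genes 1 had the genotypes apart, higher in Klrk1-/- mice, and none lower, against 9.54% and 9.79% of all genes. The other 17 members were below the minimum mean of 10 normalized counts and were not tested. Mki67 stood at 54.0, 44.8, 51 and 36.9 in Klrk1-/- mice on NCD, overlapping with WT (0.58 ± 0.25, limma adjusted p = 0.134). Ccnb1 stood at 49.4, 9.95, 16.2 and 6.15, its log2 difference was 1.41 ± 0.59 (0.124 by limma), and Klrk1-/- mouse 1 was far above the rest. Among the members tested Cenpe was next at 0.69 ± 0.46 (limma adjusted p = 0.331), and Ube2c, Plk1 and Cdc20 had the smallest differences, at 0.02, -0.03 and 0.05. Over the 50 genes the median log2 difference was 0.13, against 0.002 over all genes.

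In Klrk1-/- liver, limma and edgeR called Spc25 higher and Spc24 lower with SSD among 32 members tested, and DESeq2 called Ccnb1 lower besides. This compares with 2.53% of the 12904 genes tested called higher, 2.92% called lower and 5.46% in either direction. An unadjusted p under 0.05 was reached by 6 members (41.4% of all genes), 5 of them lower, against 21.9% of all genes that were lower at that p. Spc25 stood at 43.7, 18.7, 29.8 and 40.6 on NCD and at 108, 116 and 118 on SSD, and rose by 1.82 ± 0.26 (limma adjusted p = 0.000368). Spc24 stood at 416, 356, 403 and 466 on NCD and at 199, 198 and 126 on SSD, and fell by 1.26 ± 0.16 (limma adjusted p = 0.000169), but it was not past 2-fold when samples were scaled to the same total, which moved the median of all genes to 0.254. Of the 50 genes 2 had the diets apart and higher on SSD (Spc25 and Smc2) and 4 lower (Spc24, Ccna2, Mad2l1 and Nuf2), against 17.9% and 19.7% of all genes, though exact permutation of 3 against 4 mice cannot go below 0.0571. Nostrin, whose exons overlap those of Spc25, fell by 1.18 ± 0.12 here (limma adjusted p = 2.53e-05).

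The remaining members tested in Klrk1-/- mice were not called by limma. The values were -0.50 ± 0.23 for Mki67 (limma adjusted p = 0.125), -0.20 for Top2a, -0.20 for Cdk1, -0.40 for Ccna2, -0.10 for Plk1, 0.04 for Foxm1, 0.02 for Cdc20, 0.03 for Cdca8, 0.21 for Kif11, -0.70 for Birc5 (limma adjusted p = 0.0796), 0.70 for Anln and -1.03 for Cenpe (limma adjusted p = 0.246). Ccnb1 had the largest difference among them, -1.43 ± 0.61 (0.0971 by limma), with the high NCD value of mouse 1 noted above. Members below the minimum mean numbered 18, among them Aurkb, Bub1, Ttk, Knl1, Ndc80, Hmmr and Kif18b. The mean log2 level over the 50 genes was 4.05 ± 0.13 (SD, n = 4) on NCD and 3.82 ± 0.27 (n = 3) on SSD, with overlapping ranges, and the median log2 difference was -0.24.

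**Figure D5:**
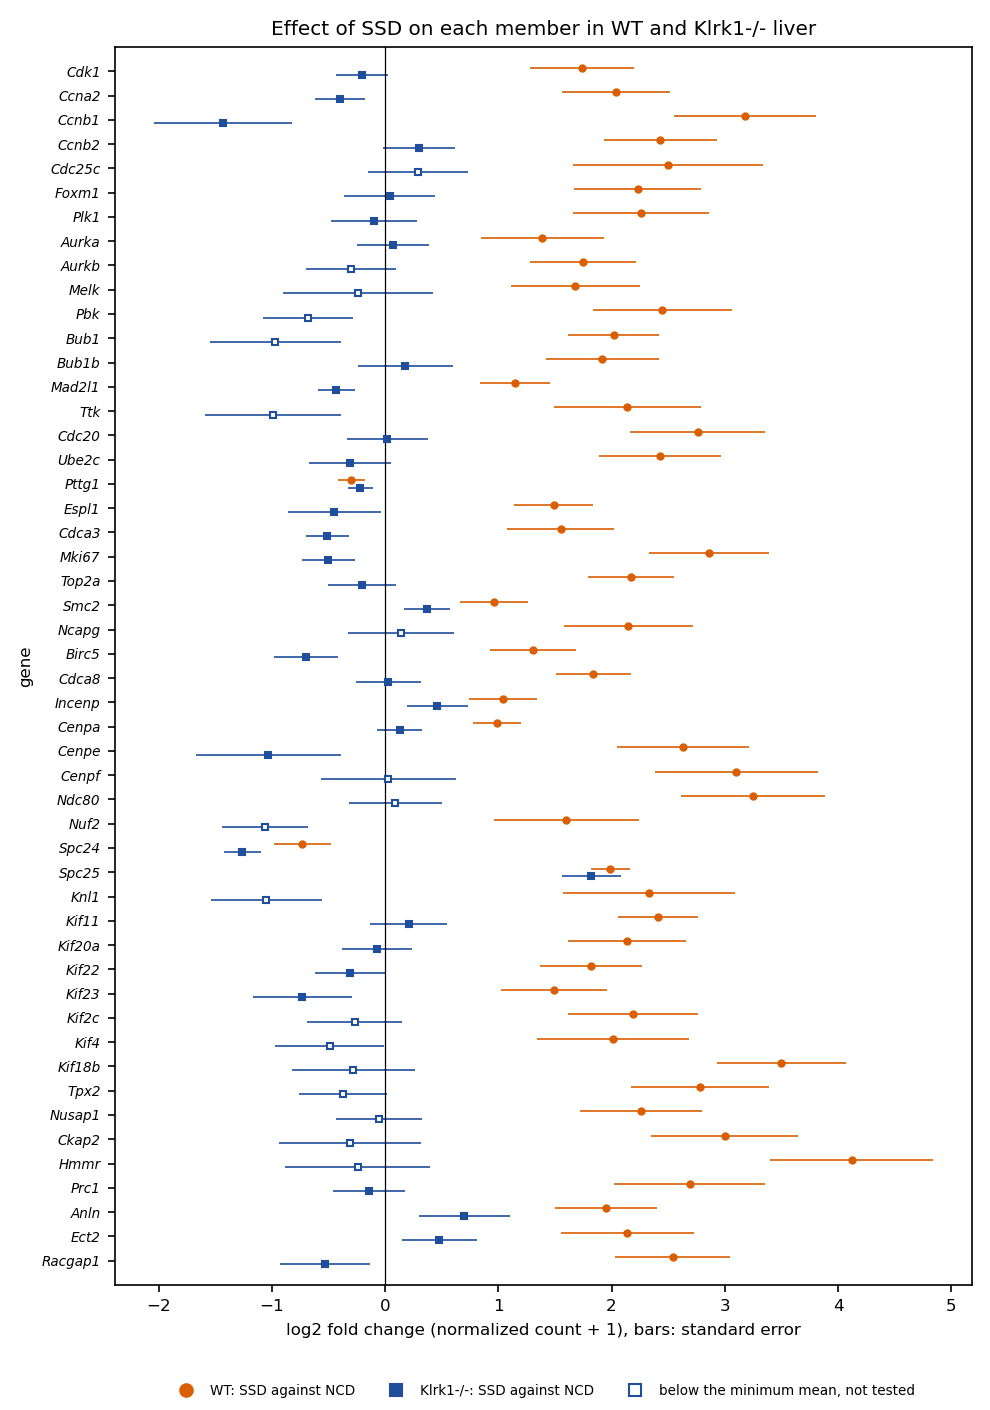
Log2 fold change with SSD (horizontal axis, bars are standard errors from limma) of each of the 50 members in WT mice (circles) and Klrk1-/- mice (squares, open where the gene was below the minimum mean and was not tested). WT values lie between 0.96 and 4.12 except those of Pttg1 and Spc24, Klrk1-/- values lie around 0 except those of Spc25, Spc24 and a few low genes such as Ccnb1, and the Spc25 values, 1.99 and 1.82, lie close together.

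Whether the diet acted differently in the 2 genotypes was tested by the interaction over all 16 mice. Limma called 3 of the 47 members tested, all with a smaller effect in Klrk1-/- mice, against 0.436% of all 13068 genes called lower and 0.0995% called higher. They were Ccnb1 (-4.61 ± 0.97 on the log2 scale, limma adjusted p = 0.0303), Mki67 (-3.36 ± 0.69, 0.0277) and Top2a (-2.37 ± 0.54, 0.0452). Ccnb1 rested on 2 to 7 reads per mouse in WT mice on NCD and 4 to 9 in Klrk1-/- mice on SSD. Its value ran from -5.72 to -2.93 over the settings. An unadjusted p under 0.05 was reached by 40 members (17.3% of all genes), all with values below 0 (8.81% of all genes), and the median over the 50 was -2.22 against 0 over all genes. Just short of the threshold were Racgap1 (-3.07, limma adjusted p = 0.0517), Kif18b (-3.78, 0.0523) and Kif11 (-2.20, 0.0526), and Hmmr had a value of -4.36 (0.0755). Kif18b and Hmmr had at most 3 reads in each WT mouse on NCD, so their values here also depend on the pseudocount. Pttg1 (0.08 ± 0.18, limma adjusted p = 0.844), Spc25 (-0.17 ± 0.32, 0.805) and Spc24 (-0.53 ± 0.35, 0.445) had the smallest values. DESeq2 called 30 members and edgeR called Ccnb1 and Mki67. Without WT mouse 5 on SSD 29 members were called, without WT mouse 1 on SSD 5, without WT mouse 3 on NCD 1, and none without WT mouse 1 on NCD, WT mouse 4 on SSD, Klrk1-/- mouse 1 or 3 on NCD or any of the 3 Klrk1-/- mice on SSD, with 34 to 43 at an unadjusted p under 0.05 in all these fits. The 2 diet comparisons and the 2 genotype comparisons share mice, so their values stand side by side and are not independent of each other.

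Other genes of the cell cycle were taken from 5 lists, whose counts stand against 6.11% of all genes called higher and 2.9% called lower with SSD in WT mice and the shares given above for the other comparisons. In the list of 50 further mitotic genes that cycle, 32 of 43 tested rose with SSD in WT mice and none fell, with a median of 1.69. Over the NCD-fed mice of both genotypes 26 of the list passed the minimum mean, so part of it entered this test through its level on SSD. Examples of genes that rose were Ckap2l (3.25), Troap (2.99) and Iqgap3 (2.54), which bind the spindle or guide cytokinesis. On SSD 8 of them were lower in Klrk1-/- mice (median -1.46), Ckap2l most (-3.59). In Klrk1-/- mice SSD called 4 higher (Nek2, Trip13, Gtse1 and Ncaph) and Spag5 lower (24 tested, median -0.06), limma called none between genotypes on NCD (26 tested, 6 at an unadjusted p under 0.05, none by edgeR or DESeq2, median 0.15), and the interaction called 4 lower (Ckap2l, Iqgap3, Spag5 and Ncapg2).

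Another list held subunits of the same machines, taken as present through the whole cycle, and also regulators such as Wee1 and Cdc25a. Of 39 such genes, all tested, SSD in WT mice called 2 higher, the kinetochore subunits Dsn1 (2.59 ± 0.31, limma adjusted p = 8.35e-05) and Nsl1 (1.39), a share near that of all genes, and the median was -0.04. The list holds the anaphase-promoting complex, cohesin and dynactin. Only Wee1, the kinase that restrains Cdk1, was called lower in Klrk1-/- mice on SSD (-1.18), and the median was -0.07. On NCD, Dsn1 was higher in Klrk1-/- mice (1.19), SSD in Klrk1-/- mice called Cdc25a higher (1.07), and the interaction called Dsn1 lower (-1.99).

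Among 20 S phase genes, SSD in WT mice called the replicative helicase subunits Mcm5 (1.09) and Mcm6 (1.17), the helicase loader Cdt1 (1.15) and the methylation maintenance factor Uhrf1 (1.51) higher and thymidine kinase Tk1 lower (-1.04), with a median of 0.58. Mcm3, Mcm5, Mcm6 and Uhrf1 were lower in Klrk1-/- than in WT mice on SSD (-1.01 to -1.94, median -0.60). Of 19 tested, limma, edgeR and DESeq2 each called none between genotypes on NCD (2 at an unadjusted p under 0.05, median -0.05) and none for SSD in Klrk1-/- mice (5, median -0.08), and the interaction called Mcm3 and Mcm6 lower.

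The list of G1 and S cyclins, their kinases, E2F and retinoblastoma family held 26 genes, of which 25 were found. Ccnd1, the cyclin that starts G1, was the 1 gene of 24 tested, a share near that of all genes, that rose with SSD in WT mice (1.44 ± 0.28, limma adjusted p = 0.00254), and the median was 0. It stood at 459.5, 528.6, 513.6 and 582.6 normalized counts on NCD and at 3160, 1183, 851.8, 1307 and 1324 on SSD, without overlap, with mouse 1 highest and mouse 5 next. On SSD, Rbl1, a retinoblastoma family member of the DREAM complex, was lower in Klrk1-/- mice (-1.15), on NCD Myc was lower (-1.80), and SSD in Klrk1-/- mice called E2f8 higher (1.15). The interaction called none of 24 with limma, edgeR or DESeq2, and 2 had an unadjusted p under 0.05.

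Of 21 CDK inhibitors and p53 targets, 6 of 19 tested rose with SSD in WT mice (Eda2r, Gadd45b, Cdkn1a, Gadd45a, Phlda3 and Sesn2) and the median was 0.46. Cdkn1a, which codes for the inhibitor that halts cycling cells, stood at 254.5, 407.8, 499.2 and 295.7 in WT mice on NCD and at 2985, 2013, 2081, 1997 and 1375 on SSD. It rose by 2.52 ± 0.22 (limma adjusted p = 8.37e-06). In Klrk1-/- mice it stood at 1330, 803.8, 772.3 and 621.2 on NCD and at 1499, 619.2 and 1316 on SSD, so it was already higher than WT on NCD (1.26 ± 0.23, limma adjusted p = 0.00537), and the interaction called it lower (-2.19 ± 0.41, 0.0181). Limma and edgeR called none of the 19 between genotypes on SSD (median -0.19), where 6 had an unadjusted p under 0.05 and DESeq2 called 2, Btg2 and Eda2r. With SSD in Klrk1-/- mice Gadd45a, Gadd45b and the inhibitor Cdkn2c rose and Bbc3 fell.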

How the data were processed

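Whole-liver RNA of 16 mice was read from 1 table of 25719 genes. The authors sequenced single reads of 100 bases, aligned them with STAR to GRCm39, counted them with FeatureCounts on GENCODE M26 and deposited a normalized count per gene and mouse, a signal made by dividing the gene's count by 1 factor per mouse; how the factors were computed is not given in the sources used here. The study's methods name a total RNA kit and the labels an mRNA kit. Deposited gene lengths were used for levels per kilobase. Columns with the authors' own comparisons hold fold changes and p-values and were not used.

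All values (100%, within 0.01 reads) were whole multiples of 1 step per mouse, which gave the reads. Samples were grouped by their labels. Limma was run on genes whose mean over the mice compared was 10 or more (version 3.58.1, trend, R 4.3.3) on log2(normalized count + 1), 2 groups per model and all 4 for the interaction, with Benjamini-Hochberg adjustment over all genes tested; this scale understates changes of low genes. The design had named this test for normalized counts, and edgeR 4.0.16 and DESeq2 1.42.0 ran on the reads. EdgeR called 1270, 127, 233, 727 and 54 genes and DESeq2 1292, 365, 243, 713 and 196 for diet in WT, genotype on SSD, genotype on NCD, diet in Klrk1-/- mice and the interaction. Single genes were tested by exact two-sided permutation. The floor for a gene was set at 3 reads per mouse. Exon overlaps came from a later GENCODE annotation on GRCm39, and promoters from RefSeq.

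Counts of replicate mice differed beyond sampling noise. The scripts were tested on simulated data. Other settings were pseudocounts of 0.5 and 10, minimum means of 0 and 50, equal totals, all 4 groups in 1 model, a replicate block, fold limits of 1.5 or none, and each mouse left out. The 50 genes, their roles, the 5 other lists and the markers were chosen with earlier results of these data known. Genes described mouse by mouse were 14 textbook members of the role groups, and the 3 largest and 3 smallest differences of each comparison were named, with calls against the majority; Cenpa, Spc25, Dsn1, Cdkn1a and Ccnd1 in detail, the printed promoters and genes just past a threshold were chosen after their values were seen. 1 marker list is not reported here.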

Additional observations from a re-analysis of the deposited data

Results flagged for a closer look

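For 3 members the effect of SSD differed between Klrk1-/- and WT mice by the interaction test of limma over 16 mice. The effect on the log2 scale in Klrk1-/- mice minus that in WT mice was -4.61 for Ccnb1, -3.36 for Mki67 and -2.37 for Top2a. All 3 were higher on SSD than on NCD in 5 of 5 WT mice. Ccnb1 rested on 2 to 7 reads per mouse in WT mice on NCD and 4 to 9 in Klrk1-/- mice on SSD. No mouse stood apart from its group by Dixon's test in the groups of 4 and 5 mice in 54 checks, which covered the 14 textbook members, Spc24, Spc25, Pttg1 and Cenpa.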

How the results depend on the processing

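The number of members called for SSD in WT mice was 21 at a minimum mean of 50, where 25 were tested, and 36 to 48 without 1 mouse. For Klrk1-/- against WT on SSD it was 4 with a pseudocount of 10, 2 at a minimum mean of 50 (27 tested), 7 with edgeR, 45 with DESeq2, 41 with all 4 groups in 1 model and 0 to 43 without 1 mouse. On NCD it was 1 with DESeq2 and 0 without any 1 mouse. For SSD in Klrk1-/- mice it was 1 with equal totals and 2 to 3 without 1 mouse. The interaction gave 1 at a minimum mean of 50 (16 tested), 30 with DESeq2 and 0 to 29 without 1 mouse. With a pseudocount of 10 the median log2 difference of the 50 genes was 1.48 for SSD in WT mice, -1.5 for genotype on SSD and -1.61 for the interaction. Pttg1 in WT mice turned to 0.04 with equal totals. Beyond the fewer members tested at the higher minimum, the cause was not tested.

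Same-numbered mice deviated from their group means with correlations of -0.146 to 0.237. Groups this small cannot decide whether the replicate numbers pair the mice. With the replicate number as a block, only mice whose number occurs in every group compared were kept. For genotype on SSD this left out WT mice 4 and 5. The counts were 30 for SSD in WT mice, 39 and 1 for genotype on SSD and on NCD, 3 for SSD in Klrk1-/- mice and 5 for the interaction. The block and the mice left out cannot be told apart in these counts. In no comparison did every mouse correlate best with its own number. Mice 1 and 3 did so for genotype on SSD, and mice 1 and 2 for SSD in Klrk1-/- mice.

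Of 722 alternative values of named members, 609 kept direction and side of the threshold, 71 lost the call, 41 gained it and 1 reversed. Low reads limit the data: 19 of 50 members had a mean under 10 in WT mice on NCD, and a left-out mouse leaves 2 in the smallest group.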
